A study of Homo sapiens with 12 samples.

Results

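The BCL2 family genes described here are BCL2, BCL2L1, MCL1, BAX, BAK1, BID, BAD, PMAIP1, BCL2L11 and BIK. They were selected by gene symbol as the rule for membership, and all 10 were found among the 25369 genes of the deposited table. Poly(A)+ RNA was sequenced from RKO colon carcinoma cells and from A549 and H460 lung carcinoma cells, each an established tumour line, after 24 h in normoxia or in hypoxia at 1% O2. RKO and A549 cells were grown in DMEM and H460 cells in RPMI, all with fetal bovine serum and an antibiotic-antimycotic, so a difference of H460 from the other lines cannot be told apart from a difference of medium. Each of the 6 groups had 2 independent biological replicates, which gave 12 libraries. The comparisons asked how oxygen changed each gene within a line, whether that change differed between lines, and how the lines differed in normoxia.

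Proteins of the BCL2 family set the threshold for the mitochondrial route of apoptosis. Anti-apoptotic members such as BCL2, BCL-XL (the long product of BCL2L1) and MCL1 hold the pore formers BAX and BAK in check at the outer mitochondrial membrane. BH3-only members carry a short helix, the BH3 domain, that docks into the groove of the anti-apoptotic proteins, and some can also activate BAX and BAK directly. BCL2L1, MCL1 and BCL2L11 are spliced into several products, and those of BCL2L1 and MCL1 include short forms of opposite activity, which a count per gene adds together. MCL1 and PMAIP1 proteins turn over quickly, and no protein was measured here.

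The BH3 stretch is what the members share, so its coding bases are shown for the 6 genes that were called in H460 hypoxia. They were read from the GRCh37 genome along the canonical GENCODE v44 transcript of each gene, 5′ to 3′ on the coding strand, by searching the translated frame for a leucine followed at the fourth residue after it by glycine or serine, then aspartate, and after 1 further residue phenylalanine, valine, leucine, isoleucine or methionine. Capitals mark the leucine codon and the codons of that glycine or serine and the aspartate. In MCL1 the stretch lay at chr1:150551347-150551370 on the minus strand, in exon 1 of 3. In BCL2 it lay at chr18:60985588-60985611 on the minus strand, in exon 2 of 3. In BID it lay at chr22:18222187-18222210 on the minus strand, in exon 4 of 6, and in BAD at chr11:64039100-64039123 on the minus strand, in exon 3 of 4. In PMAIP1 it lay at chr18:57569905-57569928 on the plus strand, in exon 2 of 2, and in BCL2L11 at chr2:111907680-111907703 on the plus strand, in exon 3 of 4. Each of the 10 members held the pattern once, and BAD alone had serine in place of glycine.
MCL1: TTAcgacgggttGGGGATggcgtg
BCL2: CTCcgccaggccGGCGACgacttc
BID: CTCgcccaggtcGGGGACagcatg
BAD: CTCcggaggatgAGTGACgagttt
PMAIP1: CTCaggagatttGGAGACaaactg
BCL2L11: TTGcggcgtattGGAGACgagttt

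Library totals ran from 27350424 to 41757584 counts. The TMM factor, which rescales a library for its composition, was 0.786 and 0.829 in the H460 hypoxia libraries and between 0.963 and 1.12 in the other 10. Of 5 hypoxia-responsive genes used to check the labels (CA9, VEGFA, SLC2A1, PDK1 and ADM), 5 rose in RKO, 4 in A549 and 5 in H460. The labelled tissues showed few defining markers. Of 4 colon markers, CDX2 alone reached a mean of 1 RPKM in RKO, at a summed level of 3.95 to 6.61. Of 4 lung markers, NAPSA alone did so in A549, none in H460 normoxia and NKX2-1 alone in H460 hypoxia, where the list summed to 1.86 and 1.88, against 0.334 and 0.509 in H460 normoxia. The 5 blood and endothelial markers summed to at most 0.0478 RPKM in any library. The 5 epithelial markers summed to between 1032 and 1620 RPKM in the normoxic lung lines but to between 119 and 126 in normoxic RKO.

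Levels are given as TMM-scaled RPKM (reads per kilobase of exon, adjusted for sequencing depth), a scale per length on which genes can be set side by side, always as replicate 1 then replicate 2. Changes are edgeR log2 fold changes of hypoxia over normoxia with their standard errors. A gene was called higher or lower when its Benjamini-Hochberg adjusted p over all genes tested in that line was under 0.1 and its fold change over 1.5.

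In normoxia the members covered a wide range within each line, and the leading genes differed by line. In RKO the order began with BCL2L1 (112 and 93.5) and MCL1 (101 and 98.9), whose replicates overlapped, followed by BAX (78.3 and 88.6) and BAK1 (51.6 and 47.7). BAD (27 and 23.5) and BID (26.0 and 21.5) overlapped, PMAIP1 stood at 14.1 and 8.49, and BCL2L11, BIK and BCL2 were all at or under 2.35. In A549 the leading 3 genes overlapped each other, with BAX at 118 and 72.1, BCL2L1 at 68.9 and 91.6 and MCL1 at 56.2 and 77.2. BAD followed at 43.3 and 36.3, and the next 3, BAK1, BID and PMAIP1, overlapped between 7.31 and 15.0. In H460 MCL1 stood alone at 169 and 190, BAX followed at 47.7 and 49.1 and BAD at 20.2 and 17.5, while BCL2L1 (16.3 and 14.9) and PMAIP1 (14.1 and 15.6) overlapped.

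**Figure D1:**
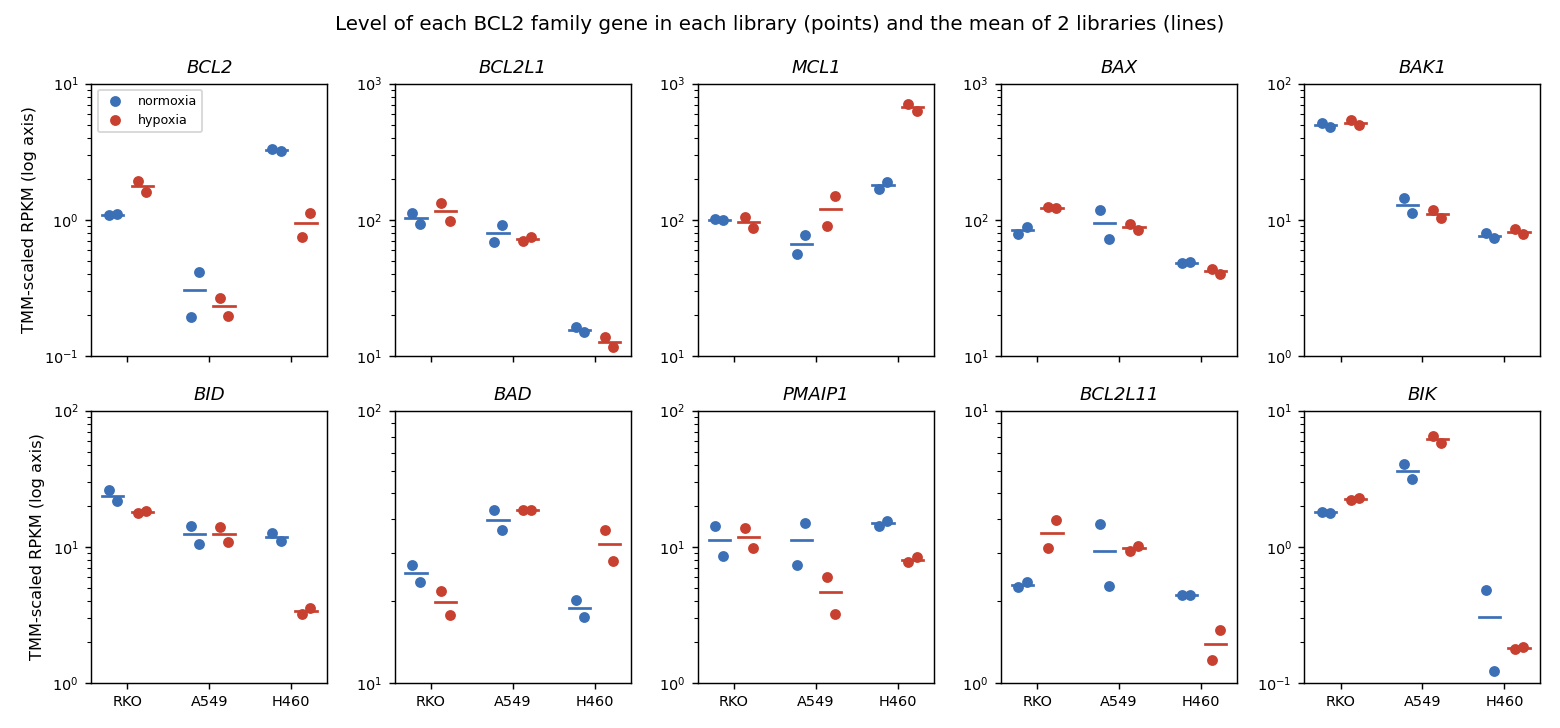
Level of the 10 BCL2 family genes in the 12 libraries as TMM-scaled RPKM on a log axis, with normoxia in blue, hypoxia in red and a line at the mean of the 2 libraries of a group. MCL1 in H460 moved from 169 and 190 to 712 and 634, and BID in H460 from 12.7 and 11 to 3.22 and 3.57.

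The normoxic levels were compared between lines in a joint edgeR fit of all 12 libraries, where 60.2% of 15595 genes were called for RKO against A549. For H460 the calls made up 61.9% of genes against RKO and 52.1% against A549. Of the 10 members, 5, 7 and 7 were called in these comparisons. The share was somewhat below that of all genes for RKO against A549 and somewhat above it for H460 against each line. BCL2L1 was 6.60-fold lower in H460 than in RKO (log2 difference of RKO over H460 2.72 ± 0.19, adjusted p = 1.04e-08) and 5.14-fold lower than in A549 (2.36 ± 0.19 for A549 over H460, adjusted p = 7.29e-08). BAK1, the pore former that resides in the outer mitochondrial membrane, was 3.88-fold higher in RKO than in A549 and 6.51-fold higher than in H460. BCL2 followed another order, lowest in A549 at 0.194 and 0.415 RPKM, 1.08 and 1.10 in RKO and highest in H460 at 3.33 and 3.19. H460 exceeded A549 by 10.7-fold for BCL2 (log2 difference of A549 over H460 −3.42 ± 0.32, adjusted p = 4.63e-07). MCL1 was 2.69-fold higher in H460 than in A549 and 1.80-fold higher than in RKO. BIK, a BH3-only gene of the endoplasmic reticulum, had 162 and 122 counts in A549, 65 and 67 in RKO and only 13 and 4 in H460.

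BCL2L1, MCL1 and BCL2 encode anti-apoptotic proteins, and MCL1 and BCL2 moved in opposite directions in H460. In H460 MCL1 rose from 169 and 190 RPKM in normoxia to 712 and 634 in hypoxia, which was from 19524 and 26498 counts to 68910 and 74441. The hypoxic libraries lay well above the normoxic ones, and the change of 1.89 ± 0.11 on the log2 scale (3.70-fold, adjusted p = 3.87e-08) placed MCL1 at rank 586 from the top among 14080 genes tested. In A549 the levels were 56.2 and 77.2 in normoxia and 89.4 and 149 in hypoxia. The groups did not overlap, and the change of 0.82 ± 0.26 had an adjusted p of 0.179. It was called with the replicate block, which removes what libraries of the same replicate number share (0.79, adjusted p = 7.07e-05). In RKO the levels were 101 and 98.9 against 105 and 86.6, and the groups overlapped (log2 change −0.13, 95% interval −0.48 to 0.23).

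BCL2 itself was called higher in RKO and lower in H460. In RKO the level was 1.08 and 1.10 in normoxia and 1.92 and 1.61 in hypoxia, from 268 and 289 counts to 517 and 399. Both hypoxic libraries were above both normoxic ones, and BCL2 was called higher at 1.56-fold (0.64 ± 0.23, adjusted p = 0.0443), close to the fold threshold. This RKO call was lost in 6 of 17 alternatives, among them leaving out either normoxia replicate or the first hypoxia replicate (0.55 to 0.65). In H460 BCL2 fell from 3.33 and 3.19 to 0.752 and 1.1 RPKM. This fall of 1.79 ± 0.17 on the log2 scale was 3.47-fold (adjusted p = 1.90e-06) and took BCL2 in H460 from above both normoxic RKO libraries to below both hypoxic ones. In A549 BCL2 had 54 and 112 counts in normoxia and 74 and 45 in hypoxia, and the groups overlapped.

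BCL2L1 was not called in any line. Its log2 change was −0.32 ± 0.11 in H460, against 0.11 ± 0.18 in RKO and −0.17 ± 0.19 in A549. In H460 the levels of 16.3 and 14.9 in normoxia and 13.7 and 11.7 in hypoxia did not overlap, and the adjusted p was 0.0169 at a fold of 1.25. Under scaling by library size alone the H460 change was −0.67 and passed both thresholds.

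Shares were taken within the summed RPKM of BCL2, BCL2L1 and MCL1, without their relatives BCL2L2 and BCL2A1. In H460 BCL2L2 stood at 20.2 and 21.6 in normoxia and 42.7 and 40.3 in hypoxia. BCL2A1 had a mean of 16.9 RPKM in normoxic RKO and 29.1 in hypoxic RKO, where it was called higher (0.72 ± 0.25, adjusted p = 0.0407). MCL1 made up 89.6% and 91.3% of the sum of BCL2, BCL2L1 and MCL1 in normoxic H460 and 98.0% in each hypoxic library. In A549 its share was 44.9% and 45.6% in normoxia and 56.0% and 66.6% in hypoxia, and in RKO it was 47.1% and 51.1% against 43.7% and 46.4%. Over all 10 members, MCL1 accounted for 57.6% and 61.2% in normoxic H460 and for 86.0% and 86.1% in hypoxic H460. The 10 genes took 0.0964% and 0.106% of all counts in normoxic H460 and 0.244% and 0.229% in hypoxic H460, against 0.0760% to 0.123% in the other 8 libraries.

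**Figure D2:**
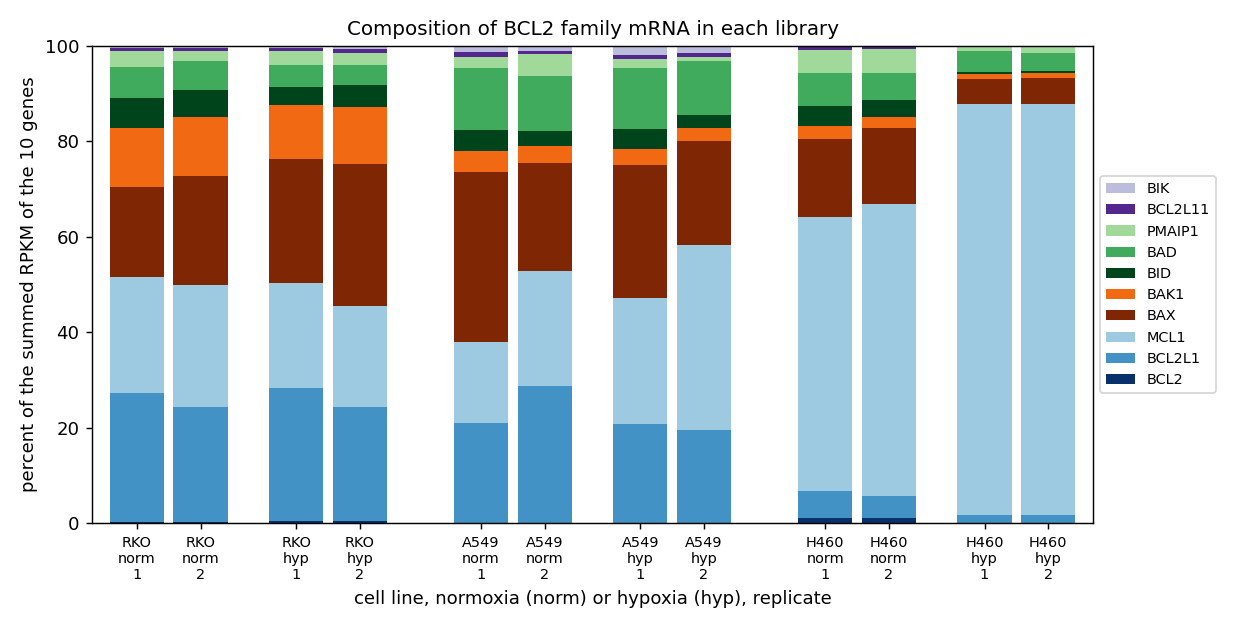
Share of each of the 10 genes in their summed TMM-scaled RPKM, in percent, 1 bar per library in order of line, oxygen condition and replicate. MCL1 (palest blue) takes 57.6% and 61.2% of the bar in H460 normoxia and 86.0% and 86.1% in H460 hypoxia.

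The pore formers BAX and BAK1 were not called in any line. BAX, which moves from the cytosol into the membrane, had levels in RKO of 78.3 and 88.6 in normoxia and 123 and 122 in hypoxia. The groups were well separated, and the change of 0.49 ± 0.15 had an adjusted p of 0.0236, but the fold of 1.41 was under the threshold. In H460 BAX was at 47.7 and 49.1 in normoxia and 43.8 and 39.8 in hypoxia, a log2 change of −0.23 ± 0.09 (adjusted p = 0.0376) and a fold of 1.17. In A549 the normoxic replicates of 118 and 72.1 enclosed both hypoxic ones. BAK1 had log2 changes of −0.23 ± 0.21 in A549, 0.09 ± 0.12 in H460 (−0.27 under scaling by library size alone) and within 0.01 of 0 in RKO, and its 95% intervals reached no further than −0.72 and 0.35.

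Of the 4 BH3-only members tested in H460, BID, PMAIP1 and BCL2L11 fell and BAD rose. Outside the members, the BH3-only gene BBC3 was called higher in H460 (1.86 ± 0.11), and BMF was not called (0.44 ± 0.34). BID, the link from death receptors to mitochondria, fell in H460 from 12.7 and 11 RPKM to 3.22 and 3.57. Its fall of 1.82 ± 0.13 on the log2 scale was 3.53-fold (adjusted p = 1.62e-07). PMAIP1, whose product NOXA binds MCL1, fell in H460 from 14.1 and 15.6 to 7.69 and 8.42, by 0.90 ± 0.11 on the log2 scale (adjusted p = 2.18e-05). BCL2L11, which encodes BIM, an activator that all the anti-apoptotic proteins bind, went from 2.09 and 2.11 to 1.22 and 1.56. It was called lower at 1.52-fold (−0.61 ± 0.15, adjusted p = 0.00336), just past the fold threshold, and lost the call with DESeq2 (−0.58) and with RLE factors (−0.58). BAD, a sensitizer that binds BCL2 and BCL-XL, rose in H460 from 20.2 and 17.5 to 36.5 and 28.0. The rise of 0.76 ± 0.13 was 1.69-fold (adjusted p = 2.36e-04), and under scaling by library size alone, which lowered the median of all genes in H460 by 0.35, it was 0.41 and no longer called. Without the first hypoxic replicate of H460 the change was 0.58 for BAD and −0.42 for BCL2L11, and neither passed the fold threshold. BIK was left untested in H460, with 13 and 4 counts in normoxia and 4 and 5 in hypoxia, so no change was detectable at this depth.

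In RKO 3 BH3-only members passed the adjusted p but not the fold. Each also had an unadjusted p under 0.05, as did 6093 of the 12817 genes tested in RKO. Outside the members, BMF (3.41 ± 0.35, adjusted p = 1.22e-04) and BBC3 (1.15 ± 0.19, adjusted p = 0.00109) were called higher in RKO. HRK was not called there (0.13 ± 0.34). BID went from 26.0 and 21.5 to 17.8 and 18.3 (−0.46 ± 0.16, adjusted p = 0.0446) and BAD from 27 and 23.5 to 21.8 and 17.8 (−0.41 ± 0.18, adjusted p = 0.0925). BCL2L11 went the other way, from 2.25 and 2.35 to 3.14 and 3.97 (0.57 ± 0.20, adjusted p = 0.0423), at a fold of 1.48, and was called under scaling by library size alone (0.66). PMAIP1 replicates differed more than the groups, at 14.1 and 8.49 against 13.8 and 9.87.

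In A549 the largest BH3-only change was that of PMAIP1. Its levels were 7.31 and 15.0 in normoxia and 6.01 and 3.23 in hypoxia. The groups did not overlap, although replicates of the same condition differed nearly as much as the conditions did, and the change of −1.28 ± 0.39 had an adjusted p of 0.167. BIK was at 4.05 and 3.14 in normoxia and at 6.48 and 5.83 in hypoxia (0.76 ± 0.29, adjusted p = 0.247). BID, BAD and BCL2L11 had overlapping groups.

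**Figure D3:**
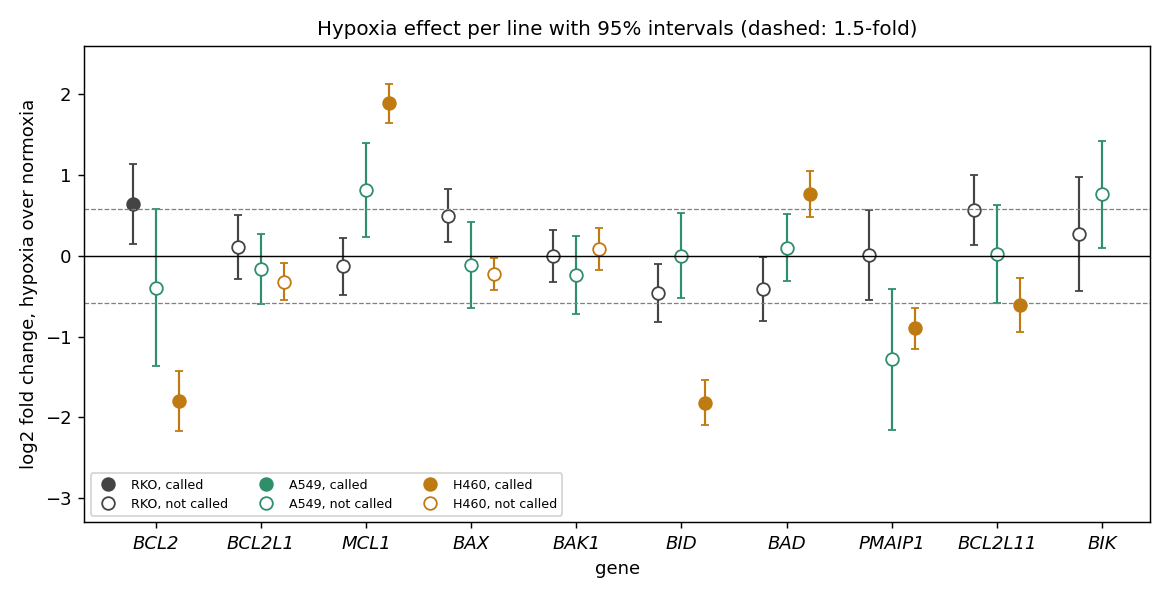
Log2 fold change of hypoxia over normoxia for each gene in RKO (grey), A549 (green) and H460 (orange), with 95% intervals from edgeR, filled points for called genes and dashed lines at 1.5-fold. Of 7 filled points, 6 belong to H460, and the A549 intervals are wide, as for PMAIP1 from −2.15 to −0.41.

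Over the members, 1 of 10 was called higher and 0 lower in RKO, where 33.9% of 12817 genes were called, 18.8% higher and 15.1% lower. Without the fold minimum 5 members passed in RKO, with BAX and BCL2L11 higher and BID and BAD lower beside BCL2. Each of these 5 also had an unadjusted p under 0.05, as did 6093 of the 12817 genes. In H460 2 of 9 tested members were called higher and 4 lower, where 51.9% of 14080 genes were called, 24.6% higher and 27.3% lower. In A549 edgeR called 0 of 10, where 2.67% of 14251 genes were called, 2.22% higher and 0.456% lower. There 3 members, MCL1, PMAIP1 and BIK, had an unadjusted p under 0.05, as did 2363 of the 14251 genes. DESeq2 called 2 members, a count that is not to be set against the edgeR share of 2.67%. With the replicate block 3 members were called in A549, where 13.4% of all genes then were. These were MCL1 (0.79, adjusted p = 7.07e-05), PMAIP1 (−1.25, adjusted p = 0.00134) and BIK (0.77, adjusted p = 0.0354). The median change of the tested members in H460 was −0.32, against −0.04 over all genes. It was 0.06 against 0.01 in RKO and −0.05 against −0.01 in A549. Levels are per total mRNA, so less RNA of a gene per cell and fewer cells that express it cannot be told apart.

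The difference of the hypoxia effect between lines was tested in the joint fit, with a call at an adjusted p under 0.1 alone. Of the 10 members, 7 differed over the 3 lines, all but BCL2L1, BAK1 and BIK, where 48.8% of 15595 genes did. With the replicate block BCL2L1 was called as well (adjusted p = 0.0661), where 60.4% of genes were. The clearest were BID (adjusted p = 5.06e-04), MCL1 (adjusted p = 0.00108) and BCL2 (adjusted p = 0.00154). Between RKO and H460 6 members differed, where 37.6% of genes did. The effect in RKO minus that in H460 was 2.49 ± 0.41 on the log2 scale for BCL2, −1.97 ± 0.31 for MCL1, 1.41 ± 0.26 for BID and 1.23 ± 0.33 for BCL2L11. It was −1.13 ± 0.24 for BAD and 0.77 ± 0.26 for BAX. The replicate block added BCL2L1 (0.46 ± 0.15, adjusted p = 0.0364), where 45.9% of genes were called. Between A549 and H460 4 members differed, where 36% of genes did, with 1.82 ± 0.26 for BID, 1.41 ± 0.44 for BCL2, −1.07 ± 0.31 for MCL1 and −0.66 ± 0.24 for BAD. Here the replicate block added BCL2L11 (0.68 ± 0.29, adjusted p = 0.0845), where 46.1% of genes were called. Between RKO and A549 1 member differed, where 14.6% of genes did, and this was MCL1 at −0.90 ± 0.31 (adjusted p = 0.0846), a call that was lost in 11 of 16 alternatives. PMAIP1, at 1.34 ± 0.48, had an adjusted p of 0.1005. With the replicate block MCL1, PMAIP1, BAX and BAD were called between RKO and A549, where 26.9% of genes were. The blocked values were −0.88 ± 0.17 for MCL1 (adjusted p = 0.00667) and 1.32 ± 0.47 for PMAIP1 (adjusted p = 0.0759). They were 0.62 ± 0.19 for BAX (adjusted p = 0.0431) and −0.48 ± 0.18 for BAD (adjusted p = 0.0860). PMAIP1 did not differ past the threshold between A549 and H460 (−0.39, 95% interval −1.42 to 0.65).

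The balance of a guardian and its partner is often read from their ratio, given here per library with no test. MCL1 over PMAIP1 mRNA, both per length, was 12 and 12.2 in normoxic H460 and 92.5 and 75.2 in hypoxic H460. It was 7.70 and 5.13 against 14.9 and 46.1 in A549, and 7.17 and 11.6 against 7.56 and 8.78 in RKO. The RKO groups overlapped, and those of the lung lines did not. MCL1 over BCL2L1 was 10.4 and 12.8 in normoxic H460 and 52.1 and 54.4 in hypoxic H460, against 0.787 to 2.00 in the other 8 libraries. BAX over BCL2 was 14.3 and 15.4 in normoxic H460 and 58.2 and 35.25 in hypoxic H460. Its groups overlapped in RKO (72.8 and 80.8 against 64.0 and 76.0) and in A549 (607 and 174 against 350 and 424). Both MCL1 over PMAIP1 and BAX over BCL2 rose in H460, and only the former rose toward the anti-apoptotic gene.

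The rest of the apoptosis machinery was read from 60 further genes in 7 lists, of which 13 were called higher and 4 lower among 56 tested in RKO, 2 higher and 0 lower among 56 in A549, and 25 higher and 7 lower among 55 in H460. Of all genes tested, RKO had 18.8% called higher and 15.1% called lower. The A549 shares of all genes were 2.22% and 0.456%. For H460 they were 24.6% and 27.3%, the background for the list counts that follow. These lists were chosen with earlier results of these data known, so setting their counts beside the all-gene shares is description only. The list counts and changes hold for TMM scaling. Scaling by library size alone shifted the median of all genes in H460 by −0.35. A shift of that size would take smaller H460 rises, such as those of XIAP, CFLAR, VDAC1, VDAC3 and FBXW7, under the fold threshold. It would make the H460 falls larger. Of 16 other BCL2 family and BH3-containing genes, 6 of 11 tested were higher in H460 and 0 lower, with a list median of 0.64 against −0.04 over all genes. BNIP3L, a mitophagy receptor, rose in all 3 lines, by 4.12 ± 0.11 in H460, 2.61 ± 0.29 in RKO and 1.82 ± 0.22 in A549. Its relative BNIP3 rose by 1.80 ± 0.19 in A549 and 3.24 ± 0.12 in H460, and in RKO it had only 11 to 31 counts and was not tested. BBC3, which encodes the BH3-only protein PUMA, rose by 1.15 ± 0.19 in RKO and 1.86 ± 0.11 in H460, opposite to PMAIP1 in H460, and its change in A549 was 0.23 ± 0.21. BCL2L2, an anti-apoptotic relative that shares its locus with a read-through gene, rose in H460 by 0.98 ± 0.09.

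The list of apoptosome and caspase genes gave 3 higher and 3 lower of 9 genes in H460, near the all-gene shares of 24.6% and 27.3%. APAF1, the apoptosome scaffold, rose by 2.05 ± 0.09 in H460 and by 0.70 ± 0.15 in RKO, while CYCS, which encodes cytochrome c, was lower by 0.95 ± 0.09 in H460 and 0.94 ± 0.15 in RKO. The initiator CASP2 fell by 0.84 ± 0.09 in H460. Among 9 caspase inhibitors and their antagonists 4 were higher and 0 lower in H460, led by BIRC3 at 2.45 ± 0.15. BIRC3 also rose in RKO by 1.18 ± 0.20 and stood at −0.20 ± 0.25 in A549. With TMM scaling BIRC2, BIRC6 and XIAP rose in H460 by 1.04, 1.09 and 0.60, and XIAP was close to the fold threshold.

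Upstream of BID, 2 of 7 death receptor genes were higher and 2 lower in H460, again near those shares. The adaptor TRADD rose by 1.16 ± 0.10 and the caspase-8 decoy CFLAR by 0.68 ± 0.09, while the receptor FAS fell by 0.88 ± 0.13 and its adaptor FADD by 0.74 ± 0.13. CFLAR also rose in RKO, by 0.78 ± 0.17. Of 6 mitochondrial partner genes 3 were higher and 1 lower in H460. The channel genes VDAC2, VDAC3 and VDAC1 rose by 1.25, 0.66 and 0.64, VDAC1 was lower by 0.61 ± 0.16 in RKO, and the protease gene OMA1 fell in H460 by 1.11 ± 0.20.

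Of 5 genes that act on MCL1 protein, 3 were called higher in H460. These were the ubiquitin ligase genes MARCH5 (1.08 ± 0.09) and FBXW7 (0.69 ± 0.13) and the deubiquitinase gene USP9X (0.93 ± 0.09), whose products act on MCL1 stability in opposite ways. Of 8 transcription regulators of the members, 4 were higher and 1 lower in H460. E2F1, a cell cycle factor, fell by 3.76 ± 0.12, while RELA, the NF-kB subunit, rose by 2.53 ± 0.12. FOXO3, known to drive BCL2L11, rose by 1.93 ± 0.11 in H460 and 0.80 ± 0.23 in RKO. BCL2L11 itself was called lower in H460 and changed by 0.57 ± 0.20 in RKO, and a link between these genes was not tested. DDIT3, the stress factor CHOP, rose by 1.46 ± 0.11 in H460 and 1.30 ± 0.37 in RKO.

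**Figure D4:**
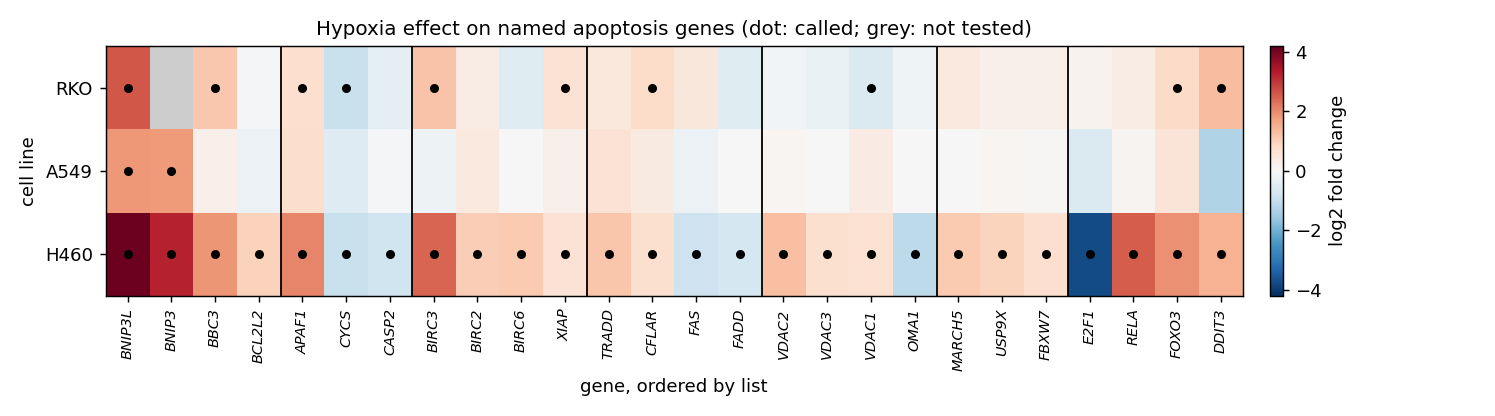
Log2 fold change of hypoxia over normoxia for 26 genes named from the 7 lists, with lines between lists, a dot on called genes and grey where a gene was not tested. The genes were named among called genes by smallest adjusted p in any line, and for each that value was the one in H460. The dot of H460 on every gene therefore largely follows from this choice. BNIP3L reaches 4.12 and E2F1 −3.76, and A549 has dots on BNIP3L and BNIP3.

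The hypoxia response element is the short DNA motif that HIF proteins bind, and its core was searched in the RefSeq promoters of the members (GRCh38.p14, from 250 bases before to 50 after each start). The core was taken as ACGTG or GCGTG on either strand, and the first of these also lies within the E-box CACGTG. Of the 8 members with an entry, 6 held a core in at least 1 promoter, all but BCL2 and BAK1. Counted per promoter, 10 of their 14 held a core, and 48.5% of 35116 promoters of all genes did. The share of 48.5% is per promoter, so it is no background for the 6 of 8 members. BAX held ACGTG 9 times over both strands, PMAIP1, BCL2L11 and BAD held GCGTG 2 times each, and the 5 BID promoters held a core in 4. A CACGTG reads the same on both strands and counts on each, so the ACGTG matches are not a number of separate sites. MCL1 and BIK had no entry.

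Across the 12 libraries, BID, MCL1 and BCL2 were the members whose hypoxia effect differed most clearly over the lines, and the genes nearest to each in pattern were found by Pearson correlation of log2 CPM among 12423 genes. For BID they were MCM4 (r = 0.990), SLC27A4 (0.985) and UHRF1 (0.985). For MCL1 they were ZBTB22 (0.986), FMNL2 (0.978) and METRNL (0.9751), and for BCL2 they were GABPB2 (0.976), LSM8 (0.971) and RPRD2 (0.967). Libraries of one line and condition share most of their pattern, so these values rest on 6 groups.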

How the data were processed

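The members and gene lists were chosen with earlier results of these data known. Poly(A)+ libraries were strand-specific (TruSeq). According to the methods, the authors trimmed low-quality ends, aligned with TopHat2 (2.0.13 in the submitters' processing notes) to hg19/GRCh37, and counted exon reads per gene with HTSeq (0.6.1). The authors deposited these counts for 25369 genes, and deposited RPKM, which equal counts per exon length and summed counts to within rounding. The counts were used as deposited. RPKM served for display after division by joint TMM factors, and for an alternative.

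The quasi-likelihood F test of edgeR 4.0.16 (R 4.3.3) was run on the 4 libraries of each line, with TMM scaling and a minimum of 0.5 CPM in at least 2 of them. Line differences came from 1 fit of 12 libraries. Adjusted p values are Benjamini-Hochberg over all genes tested. Named genes were all 10 members, up to 4 called genes per list by smallest adjusted p, and the 3 nearest in pattern to each of 3 members (mean of at least 100 counts). Of the list genes so named, 1 is not reported here. Code was tested on simulated counts.

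Within lines, deviations of same-numbered libraries from their group means correlated at 0.335 in RKO, 0.337 in A549 and 0.105 in H460. Replicate numbers were therefore read as a possible pairing, from the data alone. The main changes, errors and adjusted p values come from fits without a replicate block, since the study's methods name none. Blocked values are given beside them where the block changed a call. Alternatives were DESeq2 1.42.0, RLE factors, library size, other filters and thresholds, a joint fit, limma 3.58.1 on log2 RPKM, the replicate block and leaving out each library. MCL1 overlaps the same-strand locus ADAMTSL4-AS1 at its 3′ end.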

Additional observations from a re-analysis of the deposited data

Results flagged for a closer look

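The results below are here because the test of the difference itself found that the hypoxia effect differed between lines (edgeR, joint fit, adjusted p under 0.1). Each value is the effect in the line named first minus that in the other, on the log2 scale. Between RKO and H460 these were BCL2 at 2.49 (adjusted p = 6.53e-04), MCL1 at −1.97 (4.54e-04), BID at 1.41 (0.00150), BCL2L11 at 1.23 (0.0124), BAD at −1.13 (0.00367) and BAX at 0.77 (0.0388). BCL2 was called in each line with opposite signs, but its RKO call was lost in 6 of 17 alternatives, among them leaving out either normoxia replicate or the first hypoxia replicate.

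Between A549 and H460 they were BID at 1.82 (adjusted p = 3.65e-04), BCL2 at 1.41 (0.0300), MCL1 at −1.07 (0.0196) and BAD at −0.66 (0.0556), and between RKO and A549 MCL1 at −0.90 (0.0846), a call lost in 11 of 16 alternatives. H460 differed from the other lines in medium as well, and the part of the medium was not tested.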

How the results depend on the processing

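Over the alternatives 854 of 969 single values and 146 of 181 counts kept their direction and their side of the threshold (for counts, within 1.5 times), and the cause of the others was not tested. The H460 calls of MCL1, BCL2 and BID held in all 17 alternatives. For RKO, where 1 member was called, library size alone, the filter of 2 CPM, the joint fit and limma on log2(RPKM + 0.1) gave 2, dropping the fold minimum gave 5, and limma on log2(RPKM + 1), limma with no filter and a fold over 2 gave 0. Leaving out each library gave 0 to 1, with 0 without the first RKO normoxia replicate, and BCL2 also lost its call without the first RKO hypoxia or the second normoxia replicate. For A549 the count of 0 became 2 with DESeq2, with no filter on low counts and with the joint fit, 3 with the replicate block and 0 to 2 without single libraries, with 1 without the first normoxia and 2 without the first hypoxia replicate. The 2 other-list genes called in A549 became 4 with DESeq2, 9 with the replicate block and 2 to 9 without single libraries, with 4 without the first normoxia, 9 without the first hypoxia and 3 without the second hypoxia replicate. For H460 a fold over 2 left 3 of 6 members, and BCL2L11 lost its call with DESeq2 and RLE factors. Between RKO and A549 the 1 member became 2 with library size alone and with DESeq2, 4 with the replicate block and 0 to 3 without single libraries, and MCL1 lost its call there with library size alone, without any of the 4 RKO or 4 H460 libraries and without the first A549 normoxia or second A549 hypoxia replicate. Between A549 and H460 the 4 members became 2 to 5, with 2 without the first hypoxia replicate of either line. The replicate block ended no call of a hypoxia effect or of a difference between lines.

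Signs turned only for changes that were not called. BAK1 in RKO became 0.00109 with DESeq2, 0.00108 with RLE factors, 0.0826 with library size alone, 0.0174 with the filter of 2 CPM, 0.0611 with the joint fit, 0.0825 with limma on log2(RPKM + 0.1), filtered or not, and 0.0812 on log2(RPKM + 1). BID in A549 became −0.00012 with DESeq2, −0.000107 with RLE factors, −0.0837 with library size alone and with limma on log2(RPKM + 0.1), filtered or not, −0.00301 with no filter on low counts and −0.0780 on log2(RPKM + 1). BCL2L11 in A549 became −0.0654 with library size alone, −0.0200 with limma on log2(RPKM + 0.1), filtered or not, and −0.0230 on log2(RPKM + 1). BAK1 in H460 became −0.266 with library size alone, −0.262 with limma on log2(RPKM + 0.1), filtered or not, and −0.233 on log2(RPKM + 1). Without single libraries the ranges were −0.0717 to 0.315 for BCL2L1, −0.217 to 0.0111 for MCL1, −0.0588 to 0.0704 for BAK1 and −0.319 to 0.421 for PMAIP1 in RKO, −0.839 to 0.246 for BCL2, −0.354 to 0.0497 for BCL2L1, −0.428 to 0.290 for BAX, −0.212 to 0.248 for BID, −0.0256 to 0.235 for BAD and −0.310 to 0.453 for BCL2L11 in A549, and −0.0149 to 0.160 for BAK1 in H460. A549 had the widest errors, with a median standard error over all genes of 0.223 on the log2 scale against 0.114 for H460 and 0.184 for RKO, and changes of that size could not be resolved there.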
